A study of Mus musculus with 6 samples.

Results

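The oligodendrocyte lineage was followed through 48 genes that mark its course from dividing precursor to myelinating cell, chosen by symbol as markers of these stages. Of the 43346 genes in the count table, 47 were these markers, and all 47 had enough counts to be tested. The remaining one, Lhfpl3, was not analysed here. The groups were 3 Tmem106b-/- mice (KO) and 3 Tmem106b+/+ mice (WT), all 15 months old, with 1 female and 2 males per genotype and 1 RNA library from the cerebellum of each mouse. KO 1 and WT 1 name the females, and KO 2, KO 3, WT 2 and WT 3 the males. How the KO allele was made, and on which strain, is not given in the sources used here. TMEM106B is a transmembrane protein of late endosomes and lysosomes, and a recurrent change in the human protein is a known cause of hypomyelinating leukodystrophy.

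Oligodendrocytes wrap axons in myelin, a stack of lipid-rich membrane held together by a few abundant proteins. They arise from precursors that carry the PDGF receptor alpha and the NG2 proteoglycan, which persist and divide slowly in the adult brain. A precursor that commits to differentiation passes through a short stage marked by GPR17 and BCAS1, then switches on MYRF and the genes of myelin proteins and lipids. In the cerebellum most myelin lies in the white matter core and around the axons of the granule layer. In RNA from whole tissue, fewer cells of a type and less RNA per cell cannot be told apart.

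No gene of the lineage passed the test between genotypes. In edgeR's quasi-likelihood test with sex as a term, 0 of the 47 genes had an adjusted p under 0.05, against 48 of all 16934 genes tested, a share of 0.283%. At an unadjusted p under 0.05 the count was 6 of 47 genes, a share of 12.8%, against 8.96% of all genes. Of those 6, C1ql1, Gpr17, Tspan2, Gal3st1 and Adamts4 were lower in KO cerebella, against 4.25% of all genes, and Cacng4 was higher, against 4.71% of all genes. The median log2 fold change, KO over WT, was -0.08 across the 47 genes and 0.00029 across all genes. The 95% interval of the difference lay within 0.5 log2 units of 0, a 1.41-fold change in either direction, for 31 of the 47 genes, and within 1 log2 unit, a 2-fold change, for 45. The median distance from the estimate to either bound was 0.30 log2 units, with a range of 0.15 to 0.76, so changes smaller than that could not be seen in a typical gene. These intervals are not adjusted for the number of genes, and larger changes could also miss the threshold. Adamts4, at -0.45 log2 units, did so (edgeR adjusted p = 0.12). DESeq2 called 1 of the 47 genes (1.37% of all genes), limma-voom 0 (0.254% of all genes), and the gene called by DESeq2 was Adamts4.

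**Figure D1:**
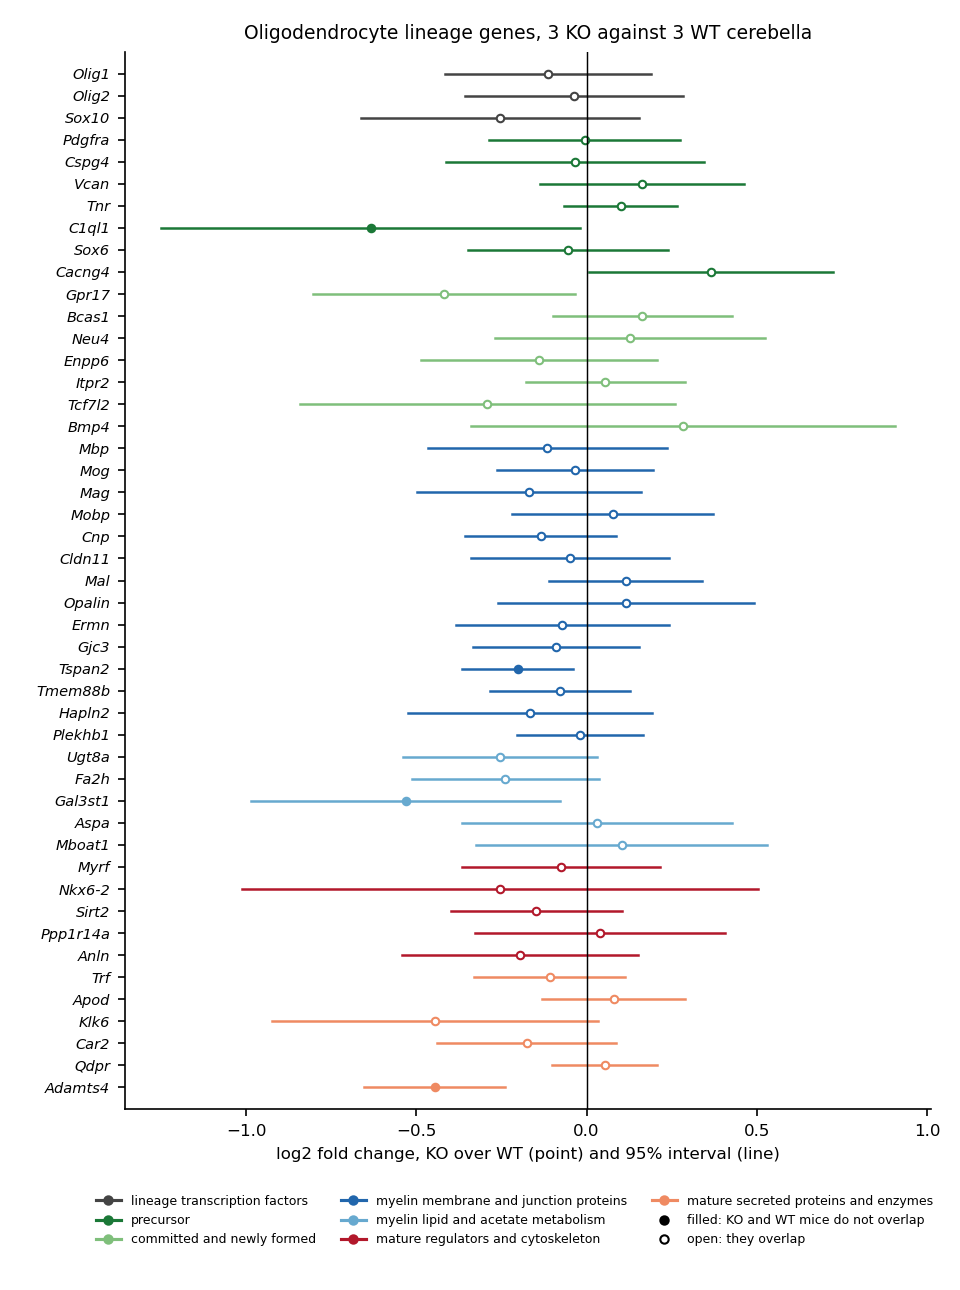
The log2 fold change (KO over WT, horizontal axis) with its 95% interval is drawn for each of 47 oligodendrocyte lineage genes, ordered from transcription factors and precursor genes at the top to mature genes at the bottom. Filled points mark the 4 genes whose KO and WT mice did not overlap, and most other intervals span 0.

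The labels and the tissue were checked first. Tmem106b had 69.7, 67.9 and 62.7 CPM, counts scaled to a common library total with TMM factors, in KO mice, against 230, 267 and 238 CPM in WT mice. It fell by 1.88 log2 units (SE 0.08, edgeR adjusted p = 1.37e-04), to 27.2% of the WT mean, so reads of the locus were reduced but not absent. Library totals ran from 25245778 to 28584165 counts in KO mice and from 29658618 to 31135185 in WT mice. Summed markers of granule cells stood at 6990 to 7439 CPM in KO and 6494 to 7083 CPM in WT mice, and those of Purkinje cells at 6948 to 8064 CPM in KO and 10476 to 11358 CPM in WT mice, with 5 of 10 Purkinje markers past the threshold. The summed level of 13 choroid plexus markers, a tissue that can adhere to a dissected cerebellum, was 1678, 5180 and 1655 CPM in KO mice, against 89.5, 4812 and 3185 CPM in WT mice. Schwann cell markers, which would point to peripheral nerve, summed to 7.67 to 8.66 CPM in KO and 5.69 to 12.7 CPM in WT mice, with Foxd3 at 0 counts in all 6. Brainstem and spinal cord markers summed to 62.2 to 73.5 CPM in KO and 59.7 to 63.9 CPM in WT mice.

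Promoter letters of 3 of the genes are shown because they cover the range found across the myelin genes, from many matches to the motif of the SOX factors, through 1 match to the MYRF motif, to none of either. Each is the 250 bases before the RefSeq start in GRCm38.p6, read 5′ to 3′ on the gene's strand, and capitals mark the matches. Mobp, an abundant protein of compact myelin, lies on the plus strand (chr9:120149492-120149741). Mog, a protein of the outermost myelin surface, lies on the minus strand (chr17:37023399-37023648). Gal3st1, the sulfotransferase that makes sulfatide, lies on the plus strand (chr11:3983386-3983635).
Mobp: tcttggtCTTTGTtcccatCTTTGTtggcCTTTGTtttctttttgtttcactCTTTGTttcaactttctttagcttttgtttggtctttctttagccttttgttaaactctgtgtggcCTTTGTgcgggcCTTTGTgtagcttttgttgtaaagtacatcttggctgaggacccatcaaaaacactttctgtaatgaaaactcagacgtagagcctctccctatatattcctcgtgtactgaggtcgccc
Mog: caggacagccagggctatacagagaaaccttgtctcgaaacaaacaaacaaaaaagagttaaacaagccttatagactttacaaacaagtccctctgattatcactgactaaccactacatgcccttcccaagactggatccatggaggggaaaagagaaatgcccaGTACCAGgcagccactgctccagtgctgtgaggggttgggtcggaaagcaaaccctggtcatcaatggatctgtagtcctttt
Gal3st1: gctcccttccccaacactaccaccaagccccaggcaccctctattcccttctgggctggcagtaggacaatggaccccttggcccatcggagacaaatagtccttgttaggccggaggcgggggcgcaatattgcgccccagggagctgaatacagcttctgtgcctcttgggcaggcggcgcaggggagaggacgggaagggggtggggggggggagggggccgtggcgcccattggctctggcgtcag
The capitals in Mobp are 6 SOX matches and those in Mog 1 MYRF match. On both strands, the SOX letters ACAAAG or AACAAT occurred in 13 of the 34 members that had such a window, a share of 38.2%, against 24.2% of 27025 gene promoters of the same length. The MYRF letters CTGGCAC or CTGGTAC occurred in 4 of the 34, or 11.8%, against 5.86% of all promoters. The E-box CANNTG, the kind of motif that OLIG1 and OLIG2 bind, occurred in 21 of the 34, or 61.8%, against 66.0% of all promoters. Matches to different motifs may share bases. These letters describe the windows only.

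Transcription factors that define the lineage had point estimates below 0, from -0.25 to -0.04 log2 units, and overlapped between genotypes. OLIG1, OLIG2 and SOX10 are present from the precursor onward, and OLIG2 and SOX10 are needed for the lineage to form and mature. Olig2 had 7.87, 8.14 and 8.43 CPM in KO mice, against 8.95, 7.12 and 9.03 CPM in WT mice, so all KO values lay inside the WT range. Its log2 fold change was -0.04 with a 95% interval of -0.36 to 0.28. Sox10 had 12.1, 18.6 and 16.5 CPM in KO mice, against 21.6, 16.1 and 18.4 CPM in WT mice. The lowest value was that of the KO female and the highest that of the WT female, while the males overlapped (log2 fold change -0.25, interval -0.66 to 0.15, edgeR adjusted p = 0.74). Olig1 averaged 18.4 ± 2.71 CPM in KO and 19.9 ± 1.77 CPM in WT mice (SD, n = 3 each), a log2 fold change of -0.11 (SE 0.13). With GC and length trends of each library removed, the estimates were -0.00072 for Olig1, 0.054 for Olig2 and -0.11 for Sox10. Their transcripts had 61.1%, 58.5% and 63.6% GC.

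Precursor genes had a group median of -0.0057 log2 units, with C1ql1 and Cacng4 on opposite sides. For 5 of the 7 the interval lay inside 0.5 log2 units of 0. Pdgfra, the receptor for the growth factor that keeps precursors dividing, had 26.2, 27.3 and 23.7 CPM in KO mice, against 21.1, 30.0 and 26.9 CPM in WT mice. The KO values lay inside the WT range, and the difference was -0.01 log2 units with an interval of -0.29 to 0.28, which as a fold change runs from 0.82 to 1.21. Cspg4, which encodes NG2, had 5.11, 7.97 and 7.02 CPM in KO mice, against 6.42, 7.91 and 6.03 CPM in WT mice (log2 fold change -0.03, interval -0.41 to 0.35). Sox6, a factor that holds precursors immature, averaged 13.2 ± 0.84 CPM in KO and 13.7 ± 1.75 CPM in WT mice. The matrix genes Vcan and Tnr, which encode versican and tenascin-R, had log2 fold changes of 0.16 (SE 0.13) and 0.10 (SE 0.07).

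C1ql1 was the gene with the lowest point estimate of the 47. It encodes a secreted C1q-related protein that inferior olive neurons also make and send to climbing fibre synapses on Purkinje cells. It had 0.708, 1.2 and 1.16 CPM in KO mice, against 1.63, 1.28 and 1.82 CPM in WT mice. The groups did not overlap, but KO 2 and WT 2 differed by less than the spread within either genotype. The log2 fold change was -0.63 (interval -1.25 to -0.02, unadjusted p = 0.044, edgeR adjusted p = 0.54), and with a mean of 37.8 counts it was the least abundant of the 47 genes. Its transcripts had 65.8% GC, the highest of the set, and its lowest value came from KO 1, the library in which GC-rich genes read low. With GC and length trends of each library removed the estimate was -0.50 (edgeR adjusted p = 0.46), and it ranged from -0.84 without WT 2 to -0.39 without WT 1. C1ql1 lies at chr11:102939264-102946688 in mm10. Cacng4, an auxiliary subunit of AMPA-type glutamate receptors, was the gene with the highest point estimate. It had 40.3, 42.1 and 57.2 CPM in KO mice, against 41.5, 32.4 and 34.5 CPM in WT mice. The KO 3 value stood apart, and the KO and WT females were nearly level (log2 fold change 0.37, interval 0.01 to 0.73, edgeR adjusted p = 0.55). The estimate was 0.19 without KO 3, 0.56 without KO 1 and 0.57 without WT 1. Without KO 1 or WT 1, the sex term takes up the remaining female, so the genotype estimate rests on the males alone.

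Of 7 genes of committed and newly formed oligodendrocytes, 4 had estimates above 0, and the group median was 0.05 log2 units. That median was -0.01 without KO 2, 0.0027 without WT 2, 0.10 without KO 3, 0.14 without KO 1 and 0.14 without WT 1. The fits without KO 1 and without WT 1 rest on the same males. Gpr17, a receptor that is on only in this short stage and restrains further maturation, had 6.89, 9.82 and 8.25 CPM in KO mice, against 11.3, 9.22 and 12.7 CPM in WT mice. KO 2 lay above WT 2, so the genotypes overlapped. The log2 fold change was -0.42 (interval -0.80 to -0.03, unadjusted p = 0.036, edgeR adjusted p = 0.51). Gpr17 (chr18:31942997-31949636) shares its whole span of 6640 bases with Lims2, which had 67.8% as many counts and a log2 fold change of -0.05, and without a stated strand setting their reads cannot be told apart.

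The other genes of this stage had estimates on both sides of 0. Bcas1, which marks oligodendrocytes as they begin to myelinate, averaged 144 ± 2.55 CPM in KO and 130 ± 25.3 CPM in WT mice (log2 fold change 0.16, interval -0.10 to 0.43). Enpp6, a choline phosphodiesterase of newly formed cells, had 7.24, 7.38 and 5.46 CPM in KO mice, against 7.75, 6.82 and 7.55 CPM in WT mice. Only KO 3 was below the WT range, and the log2 fold change was -0.14 (SE 0.15). Tcf7l2, a Wnt effector that is switched on briefly as cells differentiate, had 4.92, 4.88 and 4.70 CPM in KO mice, against 4.79, 4.58 and 8.53 CPM in WT mice. Its log2 fold change of -0.29 (SE 0.24) came from WT 3 alone, and without that library it was 0.05. Neu4, a sialidase, Itpr2, an intracellular calcium channel, and Bmp4, a ligand that slows maturation, had log2 fold changes of 0.13, 0.05 and 0.28. Bmp4 was also the gene that varied most among WT mice, at 0.765, 2.27 and 1.58 CPM, and it had 1.18, 2.64 and 1.66 CPM in KO mice. Summed markers of meningeal fibroblasts were 125, 342 and 274 CPM in WT and 207, 338 and 245 CPM in KO mice. Which cell type carried the Bmp4 reads was not tested.

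**Figure D2:**
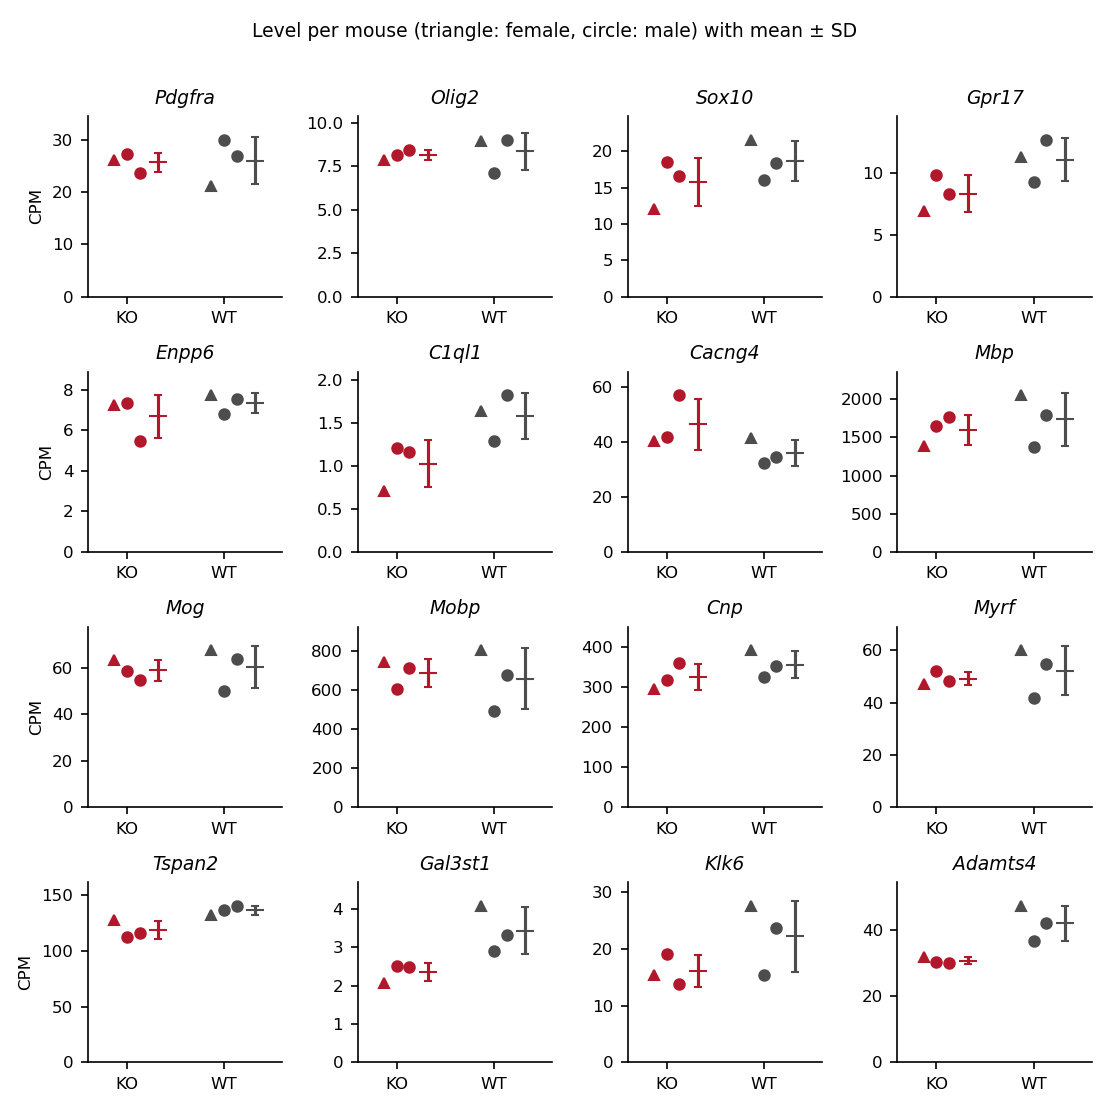
Levels in CPM (vertical axes, starting at 0) are plotted for 16 genes, KO to the left of WT, with triangles for females, circles for males and bars for the mean ± SD of 3 mice. KO and WT points overlap in all panels except those of C1ql1, Tspan2, Gal3st1 and Adamts4.

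Genes of myelin membrane and junction proteins had a group median of -0.07 log2 units, with 11 of 14 estimates below 0. For 13 of the 14 the interval lay inside 0.5 log2 units of 0. Mbp, which glues the inner faces of the myelin membrane together, had 1382, 1644 and 1764 CPM in KO mice, against 2053, 1367 and 1788 CPM in WT mice. The WT mice spanned more than the KO mice did, and the WT female was the highest of all 6 with only WT 2 below the KO female. The log2 fold change was -0.12 with an interval of -0.47 to 0.24. Mobp had 743, 607 and 713 CPM in KO mice, against 804, 494 and 677 CPM in WT mice (log2 fold change 0.08, interval -0.22 to 0.37). Both WT extremes lay outside the KO range. Mog had 63.3, 58.7 and 54.5 CPM in KO mice, against 67.4, 50.1 and 63.7 CPM in WT mice, a log2 fold change of -0.03 with an interval of -0.26 to 0.19.

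Mag, an adhesion molecule on the membrane that faces the axon, had 114, 137 and 159 CPM in KO mice, against 175, 131 and 154 CPM in WT mice. Its lowest and highest values were those of the KO and WT females (log2 fold change -0.17, SE 0.14). Cnp, a phosphodiesterase that keeps cytoplasmic channels of myelin open, had 294, 317 and 358 CPM in KO mice, against 390, 324 and 351 CPM in WT mice (log2 fold change -0.14, interval -0.36 to 0.09). Cnp overlaps Dnajc7, which had 50.7% as many counts and a log2 fold change of 0.000071.

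Tspan2, a tetraspanin of the myelin membrane, was the only gene of the 14 whose genotypes did not overlap. It had 128, 113 and 117 CPM in KO mice, against 133, 137 and 141 CPM in WT mice. The gap between the KO and WT females was small beside that between the males. The log2 fold change was -0.20 (interval -0.37 to -0.04, unadjusted p = 0.021, edgeR adjusted p = 0.43), and the adjusted p ranged from 0.060 to 1.00 over 14 alternative fits. The gene lies at chr3:102734529-102772292. Cldn11, Mal, Opalin, Ermn, Gjc3, Tmem88b, Hapln2 and Plekhb1 complete the group, with log2 fold changes between -0.17 for Hapln2 and 0.12 for Opalin. Cldn11 forms the tight junctions of myelin, Gjc3 encodes the gap junction protein connexin 29 and Hapln2 a link protein of the matrix at nodes of Ranvier. Plekhb1 had the narrowest interval among these, -0.20 to 0.17.

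Enzymes of myelin lipid had the lowest group median, -0.24, and 0 of the 5 passed the threshold. The median was -0.12 without KO 3, -0.14 without WT 3, -0.15 without WT 1, -0.15 without KO 1 and -0.32 without WT 2. The fits without WT 1 and without KO 1 rest on the same males. Ugt8a, Fa2h and Gal3st1 act in 1 pathway, in which Ugt8a makes galactosylceramide, Fa2h hydroxylates its fatty acid and Gal3st1 adds sulfate to give sulfatide. Ugt8a had 62.1, 55.2 and 43.2 CPM in KO mice, against 66.0, 55.5 and 69.0 CPM in WT mice. KO 2 and WT 2 were level and KO 3 was lowest (log2 fold change -0.25, interval -0.54 to 0.03, edgeR adjusted p = 0.63). Fa2h averaged 27.5 ± 2.37 CPM in KO and 32.5 ± 4.20 CPM in WT mice (log2 fold change -0.24, interval -0.51 to 0.04). Gal3st1 had 2.09, 2.51 and 2.5 CPM in KO mice, against 4.09, 2.90 and 3.34 CPM in WT mice, with no overlap. Its log2 fold change was -0.53 (interval -0.99 to -0.08, unadjusted p = 0.027), and the edgeR adjusted p was 0.47, with 0.29 to 0.94 over the alternatives. It rested on a mean of 84.2 counts.

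Other enzymes of the pathway, outside the 47, had estimates between -0.34 and 0.12. Of 14 sphingolipid enzymes of myelin, 0 passed the threshold in edgeR, DESeq2 or limma-voom and 0 had an unadjusted p under 0.05, and their median was -0.0032 log2 units. The lowest was Degs2, a sphingolipid desaturase and hydroxylase, at -0.34 (SE 0.18, edgeR adjusted p = 0.66). It had 2.12, 2.75 and 2.5 CPM in KO mice, against 3.19, 3.29 and 2.8 CPM in WT mice. Its groups did not overlap, as in 14.1% of all genes. Degs2 rested on a mean of 80.3 counts and shares bases with a gene holding more than 10% as many. Cers2, which makes very long chain ceramides, was at 0.07 (SE 0.09), and Galc, which breaks galactosylceramide down, at -0.04 (SE 0.09). Aspa, which releases acetate for myelin lipid from N-acetylaspartate, had 26.2, 24.1 and 16.0 CPM in KO mice, against 20.1, 21.3 and 23.2 CPM in WT mice. Here KO mice lay on both sides of the WT range, and the log2 fold change was 0.03 (interval -0.37 to 0.43). Mboat1, an acyltransferase of lysophospholipids, was at 0.10 (SE 0.19).

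Regulators of the mature cell had a group median of -0.15 log2 units, which was 0.01 in males alone. Myrf, the membrane-bound factor that turns on and maintains myelin genes, had 47.3, 52.1 and 48.2 CPM in KO mice, against 60.0, 41.7 and 54.7 CPM in WT mice. The KO values lay inside the WT range (log2 fold change -0.08, interval -0.37 to 0.21). Sirt2, a tubulin deacetylase, averaged 103 ± 11.9 CPM in KO and 114 ± 11.8 CPM in WT mice. Anln, which organises septin filaments that stabilise myelin, was at -0.19 (SE 0.15), and Ppp1r14a, an inhibitor of myosin phosphatase, at 0.04 (SE 0.16). Nkx6-2, a homeobox factor of mature oligodendrocytes, had the widest interval of all 47 genes, -1.01 to 0.50. It had 45.2 counts on average and shares 277 bases with Inpp5a, a gene with 10679 counts on average and a log2 fold change of -0.44 (edgeR adjusted p = 0.13).

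Secreted proteins and enzymes of mature oligodendrocytes held the gene closest to the threshold. Adamts4, a metalloprotease that cleaves matrix proteoglycans and that oligodendrocytes make in the adult brain, had 32, 30.3 and 30.0 CPM in KO mice, against 47.3, 36.7 and 42.2 CPM in WT mice. Every KO mouse was below every WT mouse, and the KO mice differed little among themselves, with means of 30.8 ± 1.06 CPM in KO and 42.1 ± 5.32 CPM in WT mice (SD, n = 3 each). The log2 fold change was -0.45 (SE 0.09, interval -0.65 to -0.24, unadjusted p = 9.75e-04) and the edgeR adjusted p was 0.12. Adamts4 passed the adjusted threshold in 3 of 14 alternative fits, with an adjusted p of 0.0062 in DESeq2, and in edgeR of 0.019 with no filter on low counts and 0.023 with GC and length offsets. The share of all genes called with no filter was 0.751%. Over all 14 alternatives the adjusted p of Adamts4 in edgeR, DESeq2 or limma-voom ranged from 0.0062 to 0.55. The point estimate stayed between -0.52 and -0.39 in these fits. Groups did not overlap in 4 of the 47 genes, C1ql1, Tspan2, Gal3st1 and Adamts4, a share of 8.51% against 14.1% of all genes. All 4 were lower in KO mice, against 6.35% of all genes, and 0 were higher, against 7.77% of all genes.

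Adamts4 lies at chr1:171250421-171260637. It is 1 of 5 genes of the 47 that share bases with a gene holding more than 10% as many counts as their own, and without a stated strand setting reads of such pairs cannot be told apart. What part of the Adamts4 difference came from such reads was not tested. Klk6, a secreted protease of mature oligodendrocytes, had 15.4, 19.1 and 13.7 CPM in KO mice, against 27.6, 15.4 and 23.7 CPM in WT mice. Its estimate of -0.45 was as low as that of Adamts4, but WT 2 was level with the KO mice and the interval ran from -0.92 to 0.03. In males alone it was -0.25.

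Trf, which encodes the iron carrier transferrin, was the most abundant of the 47 genes per kilobase, at 227 CPM per kilobase in KO and 245 in WT mice. It had 735, 703 and 823 CPM in KO mice, against 902, 716 and 827 CPM in WT mice (log2 fold change -0.11, interval -0.33 to 0.11). A second gene model, Gm20425, covers 26307 bases of Trf and had 96.1% as many counts, so the Trf value is not independent of it. Apod, a lipid-binding lipocalin that rises with age in oligodendrocytes, had 355, 332 and 417 CPM in KO mice, against 324, 344 and 378 CPM in WT mice (log2 fold change 0.08, interval -0.13 to 0.29). The ranges overlapped, with KO 3 the highest of the 6 mice. Car2, a carbonic anhydrase, was at -0.18 (SE 0.11). Qdpr, which regenerates tetrahydrobiopterin, was at 0.05 with the interval -0.10 to 0.21.

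Per kilobase of gene model, levels were highest for genes of mature oligodendrocytes in both genotypes. After Trf came Mbp, at 190 CPM per kilobase in KO and 207 in WT mice, Apod, at 143 in KO and 135 in WT mice, and Plekhb1, at 123 in KO and 125 in WT mice. Mobp followed at 106 in KO and 102 in WT mice. Of the precursor genes, Pdgfra was at 3.82 CPM per kilobase in KO and 3.86 in WT mice and Cspg4 at 0.832 in KO and 0.843 in WT mice. The precursor genes Cacng4 and Tnr lay above the mature genes Adamts4 and Myrf in both genotypes. The mature genes Gal3st1, Mboat1 and Nkx6-2 lay below Pdgfra in both. Olig2 was at 3.34 in KO and 3.43 in WT mice. The lowest was Tcf7l2, at 0.553 in KO and 0.683 in WT mice.

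Leaving out single mice moved the balance of directions across the lineage. Point estimates were below 0 for 32 of the 47 genes, or 68.1%, against 49.9% of all genes. The count was 25 of 47 in males alone, and near an even split without KO 1 (25), without WT 1 (24) and without KO 3 (23). Without KO 1 or WT 1, the sex term takes up the remaining female. Those fits therefore compare the same males as the fit of males alone, and are not separate checks. The median log2 fold change was -0.01 in males alone, -0.01 without KO 1, -0.0064 without WT 1 and 0.00042 without KO 3. The count was 34 without KO 2, 31 without WT 2 and 27 without WT 3, with medians of -0.09, -0.16 and -0.02. Compared within sex, the KO female minus the WT female gave a median of -0.10 log2 units with 32 of 47 genes below 0. The 2 KO males minus the 2 WT males gave a median of -0.0012 with 24 of 47 below 0. With 1 female per genotype, sex and the individual animal cannot be told apart.

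**Figure D3:**
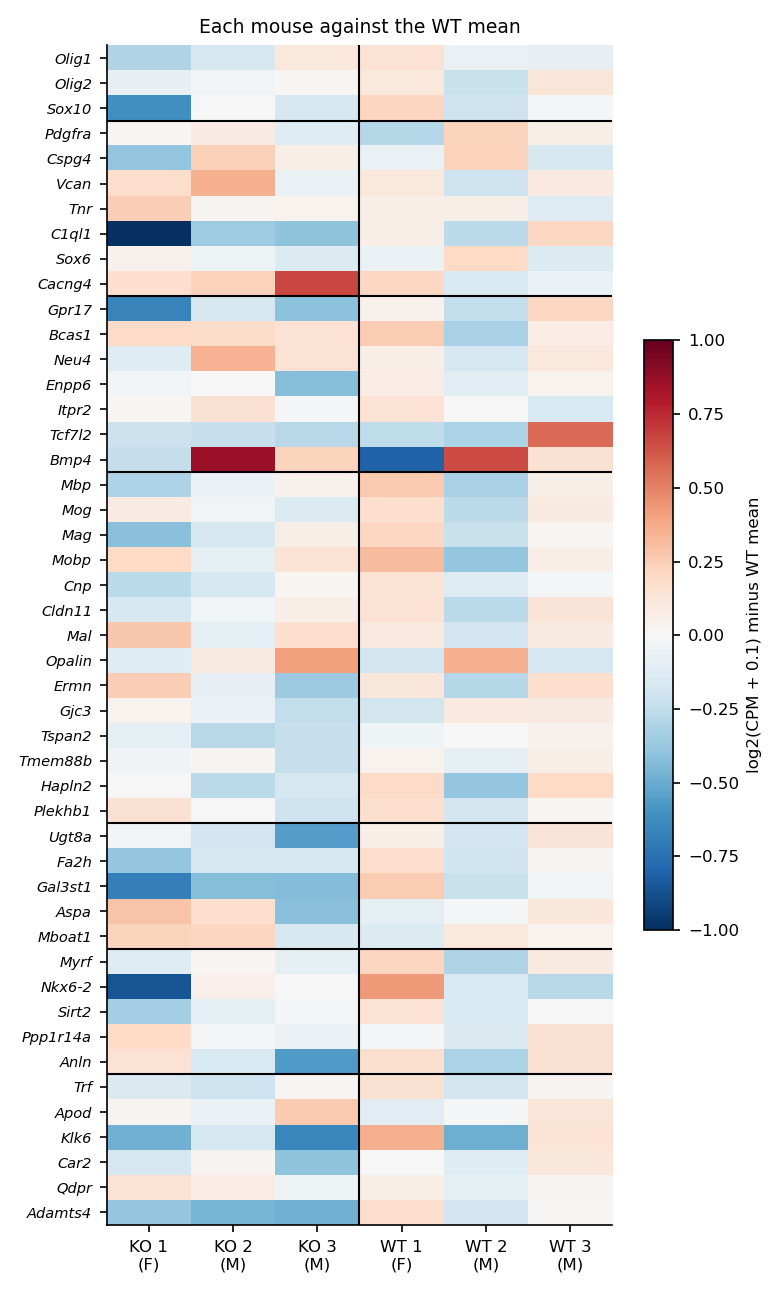
Each row is 1 gene, in the order from transcription factors to mature genes with lines between role groups, and each column 1 mouse, KO left of WT, F for female and M for male. Colour gives log2(CPM + 0.1) minus the WT mean, with red higher and blue lower, and WT 1 and WT 2 lie on opposite sides for most mature genes.

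WT 1 and WT 2 lay at opposite ends of the 6 mice. The median over the 47 genes of each mouse's deviation from the WT mean was -0.08, -0.03 and -0.10 log2 units in KO 1 to KO 3, against 0.11, -0.18 and 0.06 in WT 1 to WT 3. WT 1 had the highest value of all 6 mice in 20 of the 47 genes and in 16 of the 30 mature genes. WT 2 had the lowest value in 15 genes, KO 3 in 13 and KO 1 in 11. The ratio of the highest to the lowest WT mouse had a median of 1.28 over the 47 genes, against 1.14 over the 14279 genes whose mean reached 37.8 counts, the lowest mean of the 47. WT 1 was also the library with the lowest choroid plexus sum and WT 2 that with the highest among WT mice. KO 2 had the highest sum of all 6 mice, 5180 CPM, with a median deviation of -0.03 and the lowest value in 2 genes. KO 1 and KO 3, at 1678 and 1655 CPM, had the lowest value in 11 and 13 genes. The part of choroid plexus in the spread of the lineage genes was not tested. All 6 RNA integrity numbers were 10.

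Base composition moved with the values of some libraries. Across the 47 genes, the GC content of the transcripts and a library's deviation from the 6-mouse mean had a Pearson correlation of -0.67 in KO 1, -0.04 in KO 2 and 0.41 in KO 3, against 0.37 in WT 1, -0.04 in WT 2 and 0.04 in WT 3. These are descriptions over genes that share a library. The same correlations over 16771 genes were -0.49, -0.0010 and 0.28 in KO 1 to KO 3, and 0.19, 0.02 and 0.05 in WT 1 to WT 3. The 24 genes of higher GC content had a median deviation of -0.22 log2 units in KO 1 and 0.25 in WT 1, while the 23 of lower GC content stood at 0.05 in KO 1 and 0.06 in WT 1. With GC and length trends of each library removed, 30 of the 47 genes were below 0, the median was -0.06, and 1 gene, Adamts4, was called, against 1.5% of all genes.

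**Figure D4:**
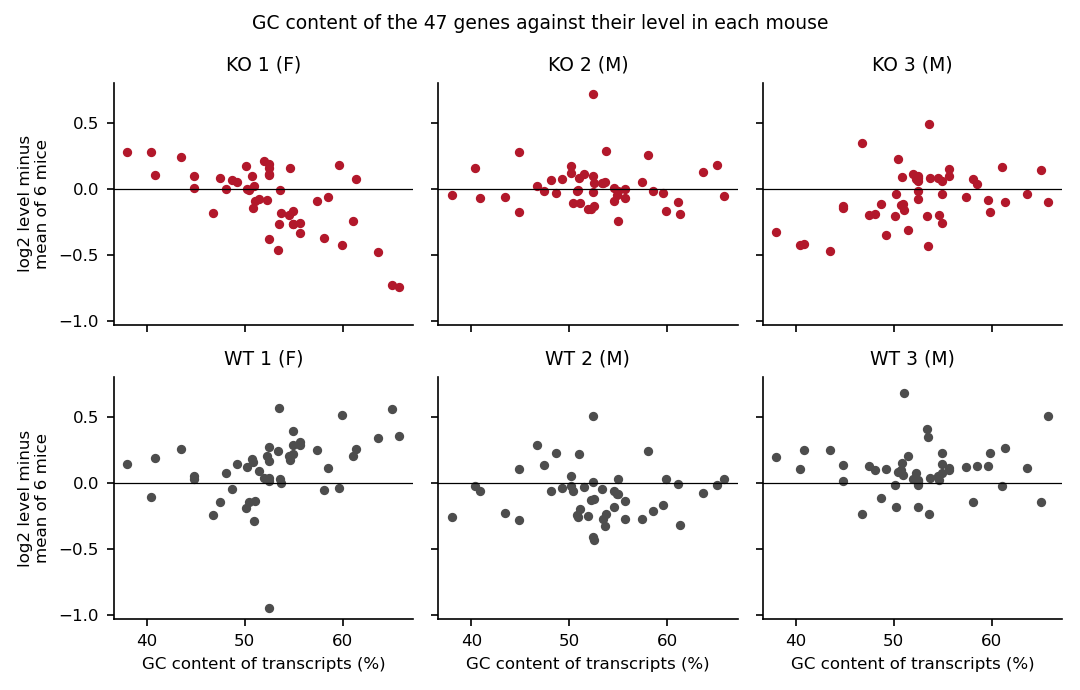
Each panel is 1 mouse, KO in the upper row and WT in the lower, and each point 1 of the 47 genes, with GC content of its transcripts in percent on the horizontal axis and its log2 level minus the mean of the 6 mice on the vertical axis. The points slope down in KO 1 and up in KO 3 and WT 1.

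No gene of the lineage passed the test of sex. The female over male coefficient called 0 of the 47 genes (0.0354% of all genes), and 3 had an unadjusted p under 0.05, against 6.68% of all genes. These were Mobp at 0.32 (SE 0.14), Plekhb1 at 0.25 (SE 0.09) and Bmp4 at -1.09 (SE 0.31), each with an edgeR adjusted p of 0.72. The test of whether the genotype difference varied with sex, added after the data were seen, called 0 of the 47 genes and 0 of all genes. At an unadjusted p under 0.05 it listed 11 of the 47 genes, against 18.8% of all genes, and the lowest adjusted p among the 47 was 0.097. Because each genotype has 1 female, this test compares a single KO and a single WT animal with the males and cannot tell sex from the animal. In Olig1, Sox10, Mag, Cnp, Fa2h, Nkx6-2 and Sirt2 the KO female was the lowest of the 6 mice and the WT female the highest, and in Mbp the WT female was the highest and the KO female the lowest but for WT 2. Pdgfra and Gjc3 ran the other way, with the KO female above the WT female (26.2 against 21.1 CPM and 87.5 against 75.1 CPM). In Cacng4 the females were nearly level. Olig1, Sox10, Mag, Cnp, Fa2h, Nkx6-2, Sirt2 and Mbp were all among the 24 genes of higher GC content, as was Cacng4. Pdgfra and Gjc3 were among the 23 of lower GC content. The correlation with GC content across the 47 genes was -0.67 in KO 1 and 0.37 in WT 1. What part base composition had in these female values was not tested.

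Beyond the 47, 7 wider lists of the lineage and its surroundings held 1 gene past the threshold in edgeR. Of 16 other precursor genes, 13 other newly formed genes and 36 other mature genes tested, 0 passed in each list, with medians of -0.09, -0.02 and -0.06 log2 units. At an unadjusted p under 0.05 these lists held 2 lower precursor genes, 2 higher newly formed genes, and 3 lower and 1 higher mature genes. DESeq2 called 1 of them, Kif5a of the mature list, at -0.34 (SE 0.09, edgeR adjusted p = 0.25, DESeq2 adjusted p = 0.037). Which cell type carried the Kif5a reads was not tested. Over all genes the shares were 4.25% lower and 4.71% higher at that unadjusted p, and 1.37% called by DESeq2. Cspg5, a proteoglycan of precursors and other glia, was at -0.25 (SE 0.08, edgeR adjusted p = 0.41), and Rras2, a small GTPase, at 0.40 (SE 0.14, edgeR adjusted p = 0.44). Of 24 signals that act on the lineage, 0 passed in edgeR, and DESeq2 called 2, Lgi4 and Id2, against 1.37% of all genes. They included Lgi4, a secreted protein known for its role in peripheral myelination, at 94.1, 95 and 102 CPM in KO mice, against 124, 118 and 115 CPM in WT mice (log2 fold change -0.30, SE 0.07, edgeR adjusted p = 0.19). Id2, an inhibitor of the partners of OLIG factors, had 99.8, 97.1 and 105 CPM in KO mice, against 121, 129 and 120 CPM in WT mice (log2 fold change -0.30, SE 0.07, edgeR adjusted p = 0.18). The groups did not overlap in either gene. Of 10 paranode and axon contact genes, 0 passed and 0 had an unadjusted p under 0.05.

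The gene that passed stood in a list of genes that oligodendrocytes switch on in disease models. Serpina3n, a secreted protease inhibitor that reactive astrocytes also make, rose to 14.6, 11.7 and 11.4 CPM in KO mice, against 6.95, 4.12 and 4.72 CPM in WT mice. The groups did not overlap, and the log2 fold change was 1.28 (SE 0.13, edgeR adjusted p = 0.013), past the threshold in 12 of 14 alternatives. It was 1 of 14 genes of that list to pass, and 7 of the 14 were higher at an unadjusted p under 0.05, against 4.71% of all genes, and the list median was 0.18 log2 units. C4b, a complement component made by several glial types, had 58.7, 57.6 and 69.9 CPM in KO mice, against 41.9, 27.9 and 38.1 CPM in WT mice, with an estimate of 0.79 (SE 0.15, edgeR adjusted p = 0.11). It passed in 4 of 14 alternatives, among them DESeq2 (adjusted p = 4.0e-05) and edgeR with GC and length offsets (adjusted p = 0.033), and the highest adjusted p over the alternatives was 0.37. Summed microglial markers were 299 to 353 CPM in KO and 196 to 243 CPM in WT mice, and those of astrocytes and Bergmann glia 6258 to 6856 CPM in KO and 6658 to 6979 CPM in WT mice. Which cell type carried the Serpina3n reads was not tested.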

How the data were processed

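Cerebellar RNA from 6 mice was analysed as 1 library per mouse, so p-values measure the spread between animals. The authors deposited raw read counts per gene with gene coordinates, lengths and symbols, per the file headers. The submitters' processing notes name STAR and the mm10 build. Not given in the sources used here were the counting tool, strand setting and annotation, so overlapping genes cannot be told apart. In the table, 27 symbols read as dates, and these were matched by identifier.

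Counts were tested with edgeR 4.0.16 in R 4.3.3. The filter was filterByExpr (minimum count 10, minimum total 15), which left 16934 genes. Libraries were scaled by TMM, and glmQLFit (robust) held sex and genotype, with residual degrees of freedom 3 and prior degrees of freedom 5.41. The two-sided quasi-likelihood F test was adjusted by Benjamini-Hochberg over all genes, with 0.05 as the threshold. Fold changes run KO over WT, and each SE is the size of the log2 fold change over the root of its F value. The 95% interval is 2.29 SE to each side. The biological coefficient of variation was 11.2%. No replicate was a copy of another: pairs within a genotype gave a chi-square of 7.51 to 31.3 per degree of freedom.

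The 48 members, their role groups, the other lists and the tests were chosen with earlier results of these data known, so lists are described by counts and medians without a test of their own. Values per mouse were given for 18 chosen anchors and for members with an unadjusted p under 0.05 or called in any alternative; other lists name genes at an unadjusted p under 0.05, and Cers2, Galc and Degs2 were named after their values were seen. Other settings tried were DESeq2 1.42.0, limma-voom (limma 3.58.1), size factors of the RLE type, no low-count filter, a mean CPM of 1 or more, the model without sex, males only, each library left out, loess offsets (span 0.5) for GC content and length, and an adjusted p under 0.10. GC content came from GENCODE transcripts and was available for 99% of genes. The sex by genotype fit was added after the data were seen. Some genes are not reported here. Scripts were tested on simulated data. Promoters and motifs used RefSeq windows in GRCm38.p6, with 34 members matched within 300 bases of the gene start in the count table.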

Additional observations from a re-analysis of the deposited data

How the results depend on the processing

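Of 658 fits of the 47 genes under 14 alternatives, 586 kept the direction and the side of the threshold, 3 passed it and 69 turned the sign. The fits of males only, without KO 1 and without WT 1 estimate genotype from the same males. They are counted as separate alternatives here but are not separate checks. The turned signs fell in 27 genes whose log2 fold change was at most 0.29 in size, and 20 genes never turned. The 3 that passed are Adamts4 with no filter on low counts, in DESeq2 and with GC and length offsets, which make 1 gene past the threshold among the 47 in each. Over all genes, 48 passed, against 75 with RLE size factors, 199 with no filter, 76 with a mean of at least 1 CPM, 232 in DESeq2, 111 in males only, 251 with GC and length offsets and 109 at an adjusted p under 0.10, and 1 to 156 when a library was left out. Between the sexes 6 passed, against 41 with no filter, 57 in DESeq2, 14 with GC and length offsets and 8 to 69 when a library was left out. In males only the median of mature regulators was 0.013, and signs turned for Olig1 (0.042), Olig2 (0.030), Sox10 (0.018), Cspg4 (0.097), Mbp (0.10), Mag (0.045), Cldn11 (0.071), Aspa (-0.15), Mboat1 (-0.037), Myrf (0.050), Nkx6-2 (0.25), Sirt2 (0.013) and Ppp1r14a (-0.058). With GC and length offsets they turned for Olig2 (0.054), Cspg4 (0.042), Plekhb1 (0.025) and Aspa (-0.056). With 1 library left out, group medians ranged from -0.22 to 0.037 for transcription factors, -0.011 to 0.12 for precursor genes, -0.013 to 0.14 for newly formed genes, -0.15 to 0.0038 for myelin membrane genes, -0.32 to -0.12 for lipid enzymes, -0.24 to 0.021 for mature regulators and -0.22 to -0.092 for mature secreted proteins, and the log2 fold changes were Olig1 -0.22 to 0.050, Olig2 -0.15 to 0.043, Sox10 -0.40 to 0.025, Pdgfra -0.17 to 0.12, Cspg4 -0.18 to 0.10, Sox6 -0.15 to 0.071, Enpp6 -0.26 to 0.00042, Itpr2 -0.016 to 0.14, Tcf7l2 -0.48 to 0.053, Mbp -0.29 to 0.11, Mog -0.14 to 0.060, Mag -0.30 to 0.053, Mobp -0.071 to 0.19, Cnp -0.21 to 2.6e-05, Cldn11 -0.19 to 0.079, Opalin -0.033 to 0.27, Ermn -0.18 to 0.098, Gjc3 -0.25 to 0.026, Tmem88b -0.15 to 0.011, Hapln2 -0.32 to 0.013, Plekhb1 -0.076 to 0.057, Aspa -0.15 to 0.25, Mboat1 -0.037 to 0.26, Myrf -0.22 to 0.057, Nkx6-2 -0.46 to 0.26, Sirt2 -0.24 to 0.021, Ppp1r14a -0.058 to 0.16. The causes were not tested. No paired analysis was possible because replicate numbers follow the order of deposit and the labels do not explain the codes in the sample titles. Low counts limit C1ql1, Nkx6-2, Bmp4 and Gal3st1, and spread between mice limits the abundant genes.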
